A study of Saccharomyces cerevisiae S288C and Saccharomyces paradoxus NRRL Y-17217 and Saccharomyces mikatae IFO 1815 with 8 samples.

Results

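The 239 open reading frames of Saccharomyces cerevisiae that lie wholly within 15 kb of a chromosome end were examined, out of 6571 open reading frames of the nuclear chromosomes. They were chosen by position alone, from the coordinates of the S. cerevisiae annotation (build sacCer2), and no read count entered the choice. Between 3 and 12 of them lay at each of the 32 chromosome ends, and 172 had an entry of the same name in the RefSeq R64 annotation, against 5725 of the 6332 other open reading frames. The gene just inside the limit was IRC4, with 15 reads in each S. cerevisiae library, and the gene just outside was YER186C, with 65 and 367 reads.

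RNA was measured in 8 strand-specific libraries, from 2 cultures of each species. S. bayanus was strain MCYC623, which the labels file under Saccharomyces uvarum CLIB 533, S. mikatae was IFO1815, S. paradoxus was Y-17217 and S. cerevisiae was S288c wt (FY4xFY5). Every strain was a wild-type prototrophic diploid and none was treated, and each species was 1 strain, so species and strain cannot be told apart. The methods name a synthetic glucose medium without amino acids and the labels complete media, and all species are described alike. Cultures with the same replicate number were prepared on the same day, so the replicate number is a day, and each species has 1 culture per day. Uniquely aligned reads are those that fit 1 place in the genome. Their sum over all annotated genes ran from 4986745 in S. cerevisiae replicate 1 to 13470636 in S. mikatae replicate 2. In S. cerevisiae the open reading frames near chromosome ends took 0.202% of these reads in replicate 1 and 0.294% in replicate 2. In the other species, lines that carry the same names took between 0.119 and 0.392%. The distance of those lines from a chromosome end was not tested.

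Yeast chromosome ends are known as the fastest changing part of the genome. Next to the telomere repeats lie X elements and, at many ends, longer Y′ elements that carry helicase genes, and inside these lie gene families that are copied from end to end by recombination. Genes there are also known for silencing by the Sir proteins and for families tied to sugars, metals, vitamins and the cell wall.

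Reads were 35 bases long and were aligned with up to 2 mismatches, so copies closer than that to each other share their reads. Stretches of 70 coding bases from 3 families are shown here from RefSeq R64 to let these distances be seen, in lower case, with capitals at the bases that differ from the first sequence of each set when compared position by position without gaps. The seripauperin genes (PAU) encode small cell wall mannoproteins known for their response to low oxygen. Their first 70 coding bases are the following.
PAU1 (chrX:9069-9138, minus strand): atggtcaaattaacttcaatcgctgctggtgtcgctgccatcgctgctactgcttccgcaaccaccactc
PAU14 (chrIX:9086-9155, minus strand): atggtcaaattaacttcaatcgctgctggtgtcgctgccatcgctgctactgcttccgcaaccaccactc
PAU8 (chrI:2100-2169, minus strand): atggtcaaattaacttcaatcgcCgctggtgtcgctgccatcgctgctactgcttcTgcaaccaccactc
PAU6 (chrXIV:781918-781987, plus strand): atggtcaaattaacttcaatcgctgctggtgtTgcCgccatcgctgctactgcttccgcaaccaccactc
PAU20 (chrXV:11842-11911, minus strand): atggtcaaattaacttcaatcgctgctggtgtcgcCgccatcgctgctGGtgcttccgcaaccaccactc
PAU19 (chrXIII:922641-922710, plus strand): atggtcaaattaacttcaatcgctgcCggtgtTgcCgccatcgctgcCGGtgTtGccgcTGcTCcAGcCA

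PAU8 and PAU6 differed from PAU1 at 2 of these bases and PAU20 at 3, so that any 35-base piece of PAU8 or PAU6 here was within 2 mismatches of PAU1. PAU19 differed at 16. The COS genes encode membrane proteins that are known to act in the sorting of plasma membrane proteins for breakdown. They ran from identity to little likeness over the same stretch.
COS2 (chrII:811410-811479, minus strand): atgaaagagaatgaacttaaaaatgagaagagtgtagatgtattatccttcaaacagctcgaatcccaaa
COS3 (chrXIII:7244-7313, plus strand): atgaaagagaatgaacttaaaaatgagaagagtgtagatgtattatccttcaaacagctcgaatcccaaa
COS4 (chrVI:6426-6495, plus strand): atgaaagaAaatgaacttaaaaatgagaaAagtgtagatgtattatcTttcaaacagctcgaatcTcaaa
COS6 (chrVII:1082660-1082729, minus strand): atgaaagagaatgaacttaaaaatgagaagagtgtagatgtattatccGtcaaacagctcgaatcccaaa
COS8 (chrVIII:6401-6470, plus strand): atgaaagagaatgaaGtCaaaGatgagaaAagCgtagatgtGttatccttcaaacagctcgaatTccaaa
COS10 (chrXIV:779916-779985, plus strand): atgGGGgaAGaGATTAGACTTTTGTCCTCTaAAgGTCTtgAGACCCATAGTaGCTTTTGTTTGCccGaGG

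COS4 differed from COS2 at 4 of these 70 bases, COS8 at 7 and COS10 at 56. The acid phosphatase genes PHO11 and PHO12, at different chromosomes' ends, are nearly the same throughout: 4 of their coding bases differed, and the capital marks one of them.
PHO11 (chrI:225698-225767, plus strand): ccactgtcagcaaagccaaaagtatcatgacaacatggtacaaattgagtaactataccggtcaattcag
PHO12 (chrVIII:552337-552406, plus strand): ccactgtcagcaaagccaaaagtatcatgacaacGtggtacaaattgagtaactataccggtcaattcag

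Most genes near the ends had almost no uniquely aligned reads, although most had aligned reads. Over both S. cerevisiae libraries 186 of the 239 had at least 20 aligned reads, and in 137 of these, 73.7%, under 10% of the reads had a single position. Among the other open reading frames 116 of 5592, 2.07%, were that low. The share was seldom in between: 37 of the 186 genes near the ends had 90% or more unique reads and 12 lay between 10 and 90%. The median share was 0.167% near the ends and 100% elsewhere. In all, 121 of the 239 had no unique read in either library, of which 23 had no aligned read either.

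The share changed over a short distance. With the near edge of the gene 0 to 5 kb from the end, 91.8% of 73 open reading frames had under 10% unique reads. This fell to 62.5% of 64 at 5 to 10 kb, 54.8% of 62 at 10 to 15 kb, 13.6% of 59 at 15 to 20 kb and 1.69% of 5095 beyond 50 kb.

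**Figure D1:**
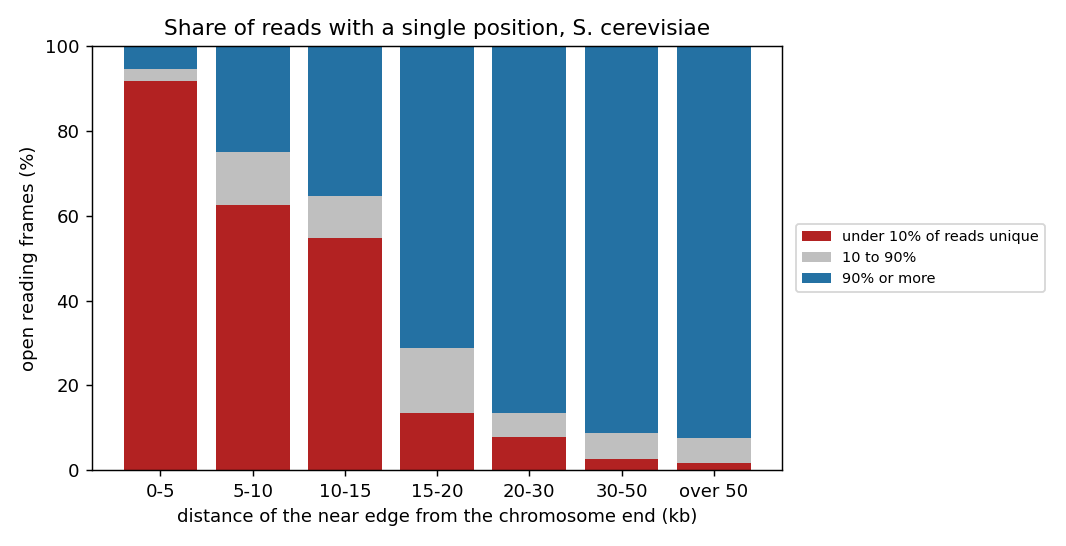
S. cerevisiae open reading frames with at least 20 aligned reads over both libraries, by the distance in kb of their near edge from the chromosome end (horizontal) and the percent of them (vertical) whose share of uniquely aligned reads was under 10% (red), 10 to 90% (grey) or 90% or more (blue). Red fills 91.8% of the first bar and 13.6% of the bar for 15 to 20 kb.

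Shares of unique reads lay close to what the sequence allowed. Every 35-base window of the 172 genes with an R64 sequence was compared with the whole R64 genome. For 84 genes no window was unique when 2 mismatches were allowed, and for 45 genes at least 90% of windows were. In 140 of the 148 genes that also had at least 20 reads, the share of unique reads was within 10 percentage points of the share of unique windows (Pearson r = 0.99 and Spearman rho = 0.85 across these genes, which share libraries and sequence, given as a description). AIF1, which encodes a mitochondrial cell death effector homolog, stood farthest off among genes with wholly unique windows: 44 of its 94 reads in replicate 1 and 116 of 199 in replicate 2 were unique, although 100% of its windows were unique in R64. The other 7 outside the 10 points were YAL065C, MAL33, AAD3, YPS6, COS8, IMD2 and YLL066W-B. The files rest on sacCer2 and the windows on R64, and the part of that difference was not tested.

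The most aligned reads near the ends stood on open reading frames of the Y′ elements, among them the Y′ helicase genes (YRF1). The 3 copies YRF1-1, YRF1-5 and YRF1-8, on chromosomes IV, XII and XV, each had 6494 aligned reads in replicate 1 and 13109 in replicate 2, and none of them had a unique read. These 3 have identical coding sequences, and the same reads stand at each of them, so the copies can be neither summed nor compared with each other. The other 5 YRF1 genes had between 5872 and 6751 reads in replicate 1 and between 12075 and 13593 in replicate 2, with at most 1 and 2 unique reads.

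By shared sequence, 35 of the 239 open reading frames belonged to Y′ elements, defined as at least 50% of 35-base windows found in a YRF1 gene, at 17 of the 32 ends. The largest counts were 8918 and 15737 aligned reads of YBL113C, 8086 and 15688 of YIL177C and 8077 and 15653 of YJL225C in replicates 1 and 2. Scaled to 1000000 reads on core genes (those measured in all 4 species, defined below) and per kb, the median of the 35 was 602 in replicate 1 and 442 in replicate 2, where the median of open reading frames outside the ends was 52.3 in both. YER190C-B, among the 35, is a frame on the opposite strand inside a helicase gene, and without it the medians were 602 and 443. YFL068W, also among the 35, differed from YER190C-B at 3 of 483 coding bases and had 24 and 82 reads. It lies inside no annotated Y′ gene and was kept in these medians. Reads that fit several copies stand in several of these values.

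Counting was strand-aware. Inside Y′ genes lie 24 open reading frames on the opposite strand, and these had 23 to 31 reads in replicate 1 and 74 to 191 in replicate 2. Per kb the Y′ gene exceeded the frame inside it by 28.3-fold in replicate 1 (median, range 3.70 to 78.7) and 16.3-fold in replicate 2 (1.25 to 41.5). The lowest ratio in both was that of YLR464W to YLR465C inside it, which in replicate 2 were nearly equal. YBL113W-A, for example, had 23 and 77 reads inside YBL113C.

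Of the 20 gene lists used here, the PAU genes had the most members near the ends, with 18 of 24. PAU1 and PAU14, identical over their whole coding length, had the same 114 reads in replicate 1 and 916 in replicate 2, all with several positions. The 18 had 21 to 136 aligned reads in replicate 1 and 113 to 1049 in replicate 2, and no more than 2 unique reads in either. None of the 18 could therefore be measured alone. Among the 6 PAU genes farther from the ends, PAU5 had 8 and 18 unique reads of 47 and 441, and PAU23 had 9 and 23 of 21 and 136.

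All 18 PAU genes were higher in replicate 2. After scaling to core reads the fold between the days was 3.08 (median, range 1.78 to 4.42), and 16 of the 18 were higher by 2-fold or more. Of 5523 S. cerevisiae open reading frames with at least 10 aligned reads in both libraries 10.6% were. With 1 library per day there is no test, and since PAU genes share reads the 18 values are not 18 measurements. The 6 PAU genes outside the ends had a median of 3.06. The 15 PAU lines of the S. mikatae annotation had a median of 1.84 and were all higher in replicate 2. The median was 1.5 over 9 lines of S. bayanus and 1.14 over 15 lines of S. paradoxus. These lines too were all higher in replicate 2, with lowest values of 1.21 and 1.02.

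Among all 169 genes near the ends with 10 aligned reads in both S. cerevisiae libraries, 31 were at least 2-fold higher in replicate 2 and 11 were at least 2-fold lower. These are 18.3% and 6.51% of the 169, where 10.6% and 14.8% of the 5523 open reading frames were that much higher and lower. Of the 31, 16 were PAU genes. The others included the DJ-1 family chaperones HSP32, HSP33 and SNO4, which share reads and were 2.66- to 2.77-fold higher. Single-position genes were among them too. ARN2, a siderophore iron transporter, was at 119 scaled reads in replicate 1 and 344 in replicate 2, and FET4, the low-affinity iron transporter, at 113 and 302. Among the 11 lower genes, SEO1, a putative permease, was at 25.5 and 4.68. The day is 1 culture against 1 culture here, and culture and day cannot be told apart.

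**Figure D2:**
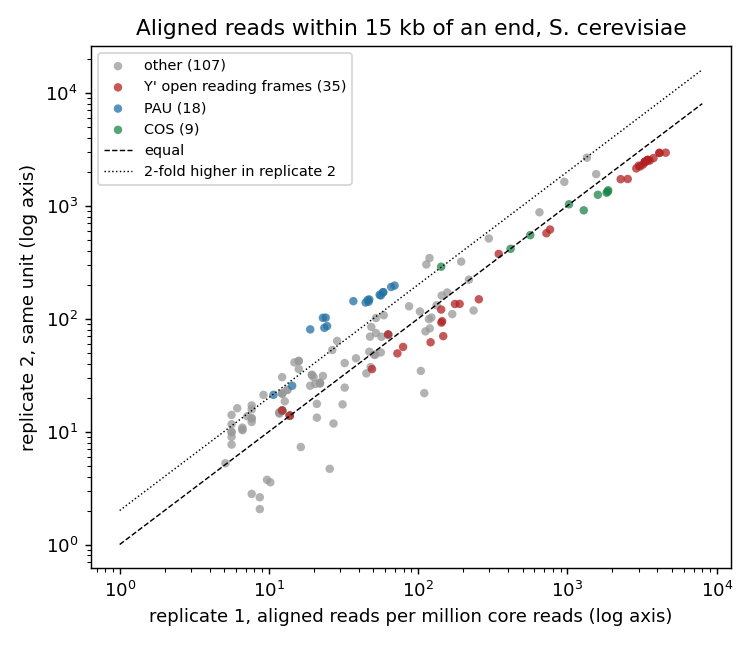
All aligned reads per 1000000 core reads in S. cerevisiae replicate 1 (horizontal) and replicate 2 (vertical, both log axes) for the 169 open reading frames near the ends with at least 10 reads in both. The 18 PAU genes (blue) all lie above the dashed line of equality, 16 of them above the dotted line of 2-fold, and the 35 Y′ open reading frames (red) lie mostly below equality, with a median of 0.735-fold.

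The COS family gave every degree of readability, with 10 of its 12 genes near the ends. COS2 and COS3 had 3579 and 3647 aligned reads in replicate 1 and 6962 and 7121 in replicate 2, of which 27 and 16, then 44 and 35, were unique. COS6, whose nearest relative of equal length was COS1 with 108 mismatches, had 449 of 2006 reads unique in replicate 1 and 1050 of 5498 in replicate 2. COS8 had 120 of 814 and 333 of 2217. COS10, the diverged sequence in the set above, had 276 of 279 and 1523 of 1540, and its scaled level was 2.02-fold higher in replicate 2. COS12, at the left end of chromosome VII, had 7 and 8 reads, all unique.

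Of 19 genes near the ends with an identical coding sequence elsewhere in R64, 6 had the same aligned counts as their partner in both libraries. HMLALPHA1, the silent copy of an alpha mating-type regulator, had 5 and 15 reads. MATALPHA1, the copy at the mating-type locus in the middle of the chromosome, had the same counts, so the silent copy's own level cannot be read. Other partners differed. ERR1 and ERR2, enolase-related genes that are identical in R64, had 115 and 281 reads in replicate 1 and 573 and 856 in replicate 2. Identity in sacCer2, on which the counts rest, was not tested. PHO11 and PHO12 had 99 and 101 reads in replicate 1 and each had 256 in replicate 2, with at most 2 unique.

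The remaining families were low or shared. IMD2, an IMP dehydrogenase of guanine nucleotide synthesis, had 590 of 2640 reads unique in replicate 1 and 3393 of 14214 in replicate 2, and its relative at the end of chromosome I, YAR073W, 2 of 1865 and 23 of 8690. The aryl-alcohol dehydrogenase genes near the ends (3 of 7) had 38 to 123 reads in replicate 1, with 30 of the 123 of AAD3 unique. The 5 genes of vitamin B6 and thiamine synthesis (of 10) had 11 to 88 reads in replicate 1 and at most 4 unique ones in either library, and the 3 hexose transporters HXT15, HXT16 and HXT17 (of 16) had 3 reads each in replicate 1 and 23 to 79 in replicate 2. SOR1, SOR2 and MAN2, of sorbitol and mannitol use, had 8, 18 and 12 reads in replicate 1 with none unique, and at most 4 unique in replicate 2. The 4 genes of the GEX and VBA families had 7 to 13 reads in replicate 1 with none unique, and at most 4 unique in replicate 2.

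Families with single-copy members could be read. MAL31, the maltose permease, had 170 and 687 reads, every one unique, while the maltase MAL12 had 40 and 141 with none unique and MAL33, the activator, had 69 of 102 and 292 of 398. The arsenic genes ARR1 (the activator, 306 and 911 reads), ARR2 (the arsenate reductase, 7 and 19) and ARR3 (the arsenite exporter, 11 and 48) had unique reads only. FRE2, a ferric reductase, had 89 of 92 and 259 of 272. The lists of flocculins, formate dehydrogenases, VPS10 homologs and the first ribosomal protein pairs had no gene wholly within 15 kb. The VPS10 homologs VTH1 and VTH2, with near edges 11491 and 11474 bases from the end, reach past the limit.

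In all 30 of the 239 genes, 12.6%, had 90% or more unique reads and at least 10 of them in both libraries, against 77.1% elsewhere. At 15 of the 32 ends no gene within 15 kb met this. The 30 had a median of 41.7 scaled unique reads per kb in replicate 1 and 41.8 in replicate 2, and the 4885 such genes elsewhere 64.9 and 68.0. The highest per kb was ERO1, which makes disulfide bonds in the endoplasmic reticulum, with 921 in replicate 1 and 1125 in replicate 2. ADH6, an NADPH-dependent alcohol dehydrogenase on the other arm of chromosome XIII, followed with 600 and 807. YML131W, a putative oxidoreductase next to ERO1, had 199 and 201. IMD2 had 192 and 404 from its unique reads alone, and COS6 200.2 and 171. COS10 had 125.3 and 253, ARR1 177 and 193, the drug exporter SGE1 119 and 196, FET4 68.4 and 182, and COX14, of cytochrome c oxidase assembly, 108 and 146. From IMD2 down the ranges of neighbouring genes overlapped, so their order does not stand.

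Near the ends few S. cerevisiae names were carried over to the other annotations. In S. paradoxus 155 of the 239 (64.9%, exact 95% interval 58.4 to 70.9) were not listed, against 15.1% of the other open reading frames, 64 were listed once and 20 more than once. In S. mikatae 182 (76.2%, 70.2 to 81.4) were not listed against 24.1%, 39 were listed once and 18 more than once. In S. bayanus 189 (79.1%, 73.4 to 84.1) were not listed against 21.1%, 37 were listed once and 13 more than once. Listed more than once were 8.37% in S. paradoxus against 2.72% of the others, and 7.53 against 3.22% in S. mikatae. In S. bayanus it was 5.44% (2.93 to 9.12), an interval that holds the 4.39% of the others. The intervals cover counting error only and take each gene as independent, although many are copies of each other. They are no test of a difference. These are the names in the annotations of assembled contigs: a name that is not listed was not shown to be absent from the species.

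Only 23 of the 239 names, 9.62%, were listed in all 3 other species, against 65.5% elsewhere, and 132, 55.2%, in none, against 10.1%. Of the 132, 57 had no RefSeq entry. Exactly 1 line in each of the 3 was found for 11 names, against 59.1% of the other open reading frames. Of the 35 Y′ open reading frames 4 were listed in any other species. The share not listed in S. paradoxus went from 82.4% at 0 to 5 kb to 24.2% at 15 to 20 kb and 14.8% beyond 50 kb.

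**Figure D3:**
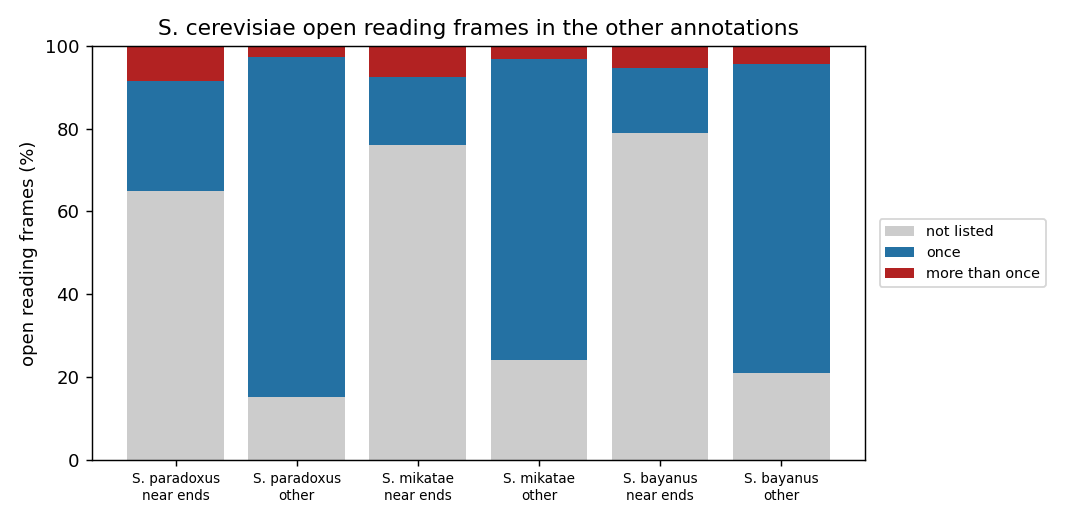
Percent of S. cerevisiae open reading frames (vertical) that each other species' annotation does not list (grey), lists once (blue) or lists more than once (red), for the 239 near the ends and the 6332 others. Grey fills 64.9 (S. paradoxus), 76.2 (S. mikatae) and 79.1% (S. bayanus) of the bars near the ends and 15.1, 24.1 and 21.1% of the bars for the others.

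Names listed more than once stood on lines of full length and on short ones. YGR293C, which had no read in S. cerevisiae and overlaps PAU12 on the opposite strand by 41 bases, was listed 8 times in S. paradoxus and 10 times in S. mikatae. The 10 S. mikatae lines were 216 or 225 bases long against 462 in S. cerevisiae, with 9 to 48 aligned reads in replicate 1 and 34 to 107 in replicate 2. PAU11 was listed 5 times in S. paradoxus at full length, with 128 to 170 reads in replicate 1, none unique. PAU12 was listed 5 times in S. mikatae, with 159 to 208 reads and at most 5 unique. MAL31 was listed 2 times in S. paradoxus, both lines on 1 scaffold, with 238 of 505 and 549 of 824 reads unique in replicate 1. It was listed 2 times in S. mikatae and 4 times in S. bayanus, where 2 of the 4 lines were 342 bases long, 18.5% of the S. cerevisiae length. YPS6, a cell surface aspartic protease, had 3 lines in S. paradoxus, of which the full-length one had 389 of 434 reads unique, and 5 in S. bayanus.

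Length differed often. Of 120 S. paradoxus lines for these names 50.8% fell outside 90 to 110% of the S. cerevisiae length, of 102 S. mikatae lines 57.8% and of 71 S. bayanus lines 45.1%. Some of the largest counts sat on such lines. IRC7, a beta-lyase of sulfur amino acids that is known to be shortened in the laboratory strain, was listed once in each species at 118% of the S. cerevisiae length. S. cerevisiae had 234 and 438 reads, all unique, S. paradoxus 1601 and 2214, S. mikatae 920 and 1248, and S. bayanus 102 and 295. YFL057C, an aryl-alcohol dehydrogenase name of 459 bases in S. cerevisiae with 95 and 451 aligned reads, had 1128 bases in S. paradoxus with 9857 and 14206, of which 5345 and 7956 were unique. YAR068W, of unknown function, had 215 and 117 aligned reads in S. cerevisiae with at most 1 unique, and on a line of 69.8% of that length in S. mikatae 6234 and 12321, of which 5073 and 10010 were unique. Lines of other length were not tested between species.

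Lines with at least 20 reads were unique in a smaller part than elsewhere in each species. In S. paradoxus 34 of 89 such lines, 38.2%, had 90% or more unique reads, against 92.5% of lines of other genes. In S. mikatae it was 31 of 91, 34.1%, against 93.8%, and in S. bayanus 27 of 57, 47.4%, against 91.9%.

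Between species, 6 of the 239 genes belonged to the core set of 2739 genes, those with 1 annotation in every species, a length of 90 to 110% of the S. cerevisiae gene and at least 90% unique reads. All 6 were among the 2707 with enough reads for edgeR's quasi-likelihood test, with species and day as terms and Benjamini-Hochberg adjustment over those 2707. They are MIX23, SRO77, MNT2, YML131W, COX14 and FET4, and none lies wholly within 10 kb of an end. The 3 comparisons share the 2 S. cerevisiae libraries. In S. paradoxus 1 of the 6 was called (adjusted p under 0.05), where 19.3% of all tested genes were. In S. mikatae 4 were called, where 22.7% were, and in S. bayanus 4, where 28.3% were. With 6 genes these counts are a description.

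MIX23 (chrII:9961-10551), which encodes a protein of the mitochondrial intermembrane space, was lowest in S. cerevisiae. Unique reads in replicates 1 and 2 were 4 and 18 there, against 25 and 26 (S. paradoxus), 80 and 44 (S. mikatae) and 137 and 57 (S. bayanus). Per 1000000 core reads (normalised reads) these are 2.04 and 3.37, 9.80 and 8.09, 20.8 and 10.6, and 53.6 and 20.1. The S. cerevisiae pair lay below all 6 other values. On the log2 scale S. bayanus was 3.44 ± 0.62 (SE) higher (adjusted p = 0.0016) and S. mikatae 2.26 ± 0.61 higher (adjusted p = 0.018), while S. paradoxus, at 1.52 ± 0.63, missed the threshold (adjusted p = 0.099). The S. mikatae call was lost without S. cerevisiae replicate 1 (1.68) and without either S. mikatae library (2.05 and 2.48), and the S. bayanus call was kept in all 8 fits that left out 1 library.

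YML131W (chrXIII:10199-11296) differed in both directions. Unique reads were 428 and 1182 (S. cerevisiae), 861 and 988 (S. paradoxus), 3618 and 2622 (S. mikatae) and 265 and 278 (S. bayanus). In normalised reads S. cerevisiae was at 219 and 221, S. mikatae at 942 and 633 and S. bayanus at 104 and 98.0, so none of these groups overlapped. S. mikatae was 1.82 ± 0.36 higher (log2, adjusted p = 0.0037), which held in all 8 fits that left out 1 library. S. bayanus was lower by a log2 change of -1.13 ± 0.36 (adjusted p = 0.030), which was lost without either library of S. cerevisiae, S. paradoxus or S. bayanus (-0.98 to -1.28). The S. paradoxus change of 0.55 ± 0.35 did not pass (adjusted p = 0.28).

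SRO77 (chrII:10847-13879), which encodes a relative of the tumour suppressor lethal giant larvae that acts in exocytosis, had 331 and 586 unique reads (S. cerevisiae), 302 and 393 (S. paradoxus), 1402 and 1258 (S. mikatae) and 205 and 167 (S. bayanus). S. mikatae was at 365 and 304 normalised reads against 169 and 110 in S. cerevisiae, 1.28 ± 0.34 higher on the log2 scale (adjusted p = 0.017). S. bayanus, at 80.2 and 58.9, was called lower with -0.99 ± 0.35 (adjusted p = 0.046). The S. mikatae call was lost without S. cerevisiae replicate 2 and without either S. mikatae library (1.09 to 1.31), and the S. bayanus call was lost in each of the 8 fits without 1 library (-0.80 to -1.18).

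FET4 (chrXIII:912878-914536) was highest in S. cerevisiae and also the most variable of the 6. Unique reads were 222 and 1612 (S. cerevisiae), 230 and 170 (S. paradoxus), 67 and 442 (S. mikatae) and 134 and 118 (S. bayanus). In normalised reads the S. cerevisiae values of 113 and 302 lay above the other 6, of which the highest was 107 in S. mikatae replicate 2. The log2 change was -1.84 ± 0.62 in S. mikatae (adjusted p = 0.047), -1.95 ± 0.64 in S. bayanus (adjusted p = 0.035) and -1.30 ± 0.63 in S. paradoxus, which did not pass (adjusted p = 0.16). The S. mikatae call was lost without S. cerevisiae replicate 2 (-1.21) and without S. mikatae replicate 1 (-1.0), and the S. bayanus call without S. cerevisiae replicate 2 (-1.45) and without S. bayanus replicate 2 (-1.28). Both FET4 calls were also lost without the day as a term (-1.74 and -2.15), as were those of SRO77 in S. mikatae (1.26) and in S. bayanus (-1.0) and of YML131W in S. bayanus (-1.12).

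MNT2 (chrVII:12481-14157), a mannosyltransferase of protein O-glycosylation, had 201 and 618 unique reads (S. cerevisiae) against 719 and 1000 (S. paradoxus). At 103 and 116 against 282 and 311 normalised reads the groups did not overlap, and S. paradoxus was 1.44 ± 0.33 higher on the log2 scale (adjusted p = 0.011). The call was lost without S. cerevisiae replicate 2 (1.44) or either S. paradoxus library (1.41 and 1.45). In S. mikatae (116 and 124 normalised reads, 0.14 ± 0.33, adjusted p = 0.79) and S. bayanus (153 and 189 normalised reads, 0.64 ± 0.33, adjusted p = 0.16) it did not pass. COX14 (chrXIII:14542-14754), with 45 and 166 reads in S. cerevisiae and 41 to 109 in the other libraries, passed in none of the 3.

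Between the days, none of the 6 was called by edgeR or by DESeq2 and none was under an unadjusted p of 0.05. Of all 2707 tested genes edgeR called 10 (0.369%) and DESeq2 243. Under an unadjusted p of 0.05 were 585 genes with edgeR and 627 with DESeq2. With 6 genes, the absence of calls is a description. The largest change was that of FET4, 0.71 ± 0.47 (log2, replicate 2 over 1, adjusted p = 0.40).

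**Figure D4:**
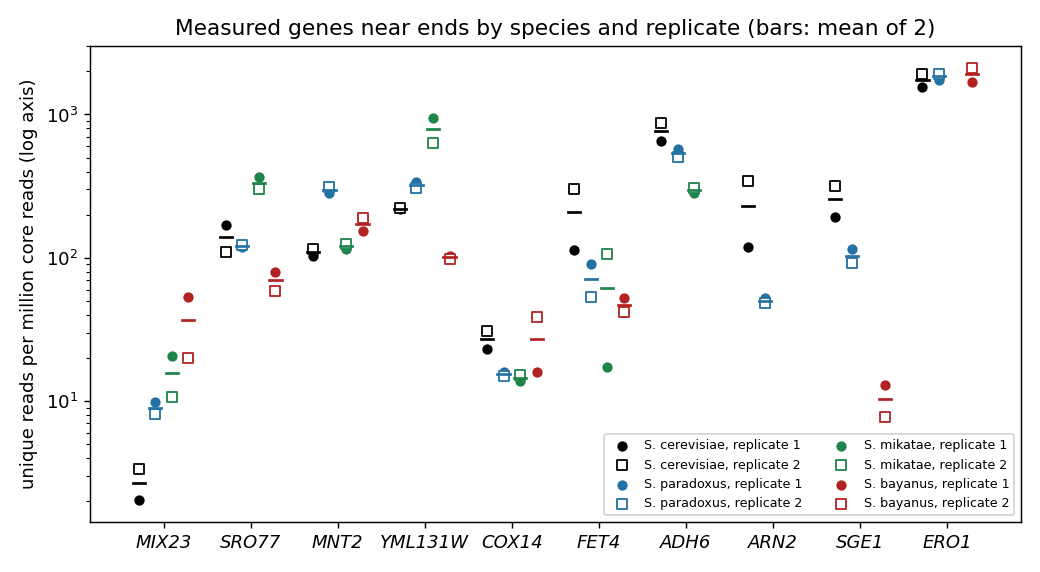
Uniquely aligned reads per 1000000 core reads (vertical, log axis) of 10 genes near the ends, with replicate 1 as filled circles, replicate 2 as open squares, 1 colour a species and a bar at the mean of both, drawn where the gene was measured. S. cerevisiae is lowest for MIX23 (2.04 and 3.37) and highest for FET4 (113 and 302), and S. bayanus lies far below for SGE1 (12.9 and 7.75).

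More genes could be compared pairwise, with the same rules applied to S. cerevisiae and 1 other species and edgeR fitted to those 4 libraries with species and day as terms. These rules admitted 22 of the 239 genes, so 217 passed them in no pair. Of the 22, YER187W and YFR056C did not reach 10 unique reads in at least 2 libraries, so edgeR did not test them. YER187W passed the rules only with S. mikatae (9 and 159 unique reads against 1 and 5). YFR056C passed them only with S. bayanus, and none of those 4 libraries held a read of it. Of the 76 genes near the ends that belong to the families above, only ARN2 and ARR1 were among the 22.

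In S. paradoxus 5 of 14 were called, where 23.9% of 4214 tested genes were. ARN2 had 233 and 1836 unique reads (119 and 344 normalised) against 134 and 155 (52.5 and 48.2), a log2 change of -2.08 ± 0.45 (adjusted p = 0.0015). ADH7, a relative of ADH6 at the right end of chromosome III, had 3 and 11 against 28 and 32 reads, 2.39 ± 0.69 higher (adjusted p = 0.014). SGE1 had 380 and 1708 against 294 and 296, -1.34 ± 0.40 (adjusted p = 0.017). MNT2 was again higher (1.38 ± 0.38, adjusted p = 0.0092), and FET4 was called lower in this fit (-1.49 ± 0.48, adjusted p = 0.024). ARR1 (306 and 911 against 247 and 316 reads) did not pass (-0.81 ± 0.38, adjusted p = 0.12), nor did ERO1 (3049 and 10168 against 4470 and 6207, 0.030 ± 0.45, adjusted p = 0.97). With DESeq2 size factors in place of TMM 3 of the 14 were called, and 633 of all 4214 genes: FET4 (-1.44) and SGE1 (-1.29) no longer passed. ARN2, FET4 and SGE1 were called lower also without S. cerevisiae replicate 1, and MNT2 higher without S. cerevisiae replicate 2. Each of the 5 was lost when the other single libraries were left out, fits that can hold no day term: ARN2 at -1.23 to -2.25, FET4 at -0.66 to -1.96, SGE1 at -0.90 to -1.47, MNT2 at 1.27 to 1.53, and ADH7, without any of the 4, at 2.24 to 2.74. With all 4 libraries but no day term edgeR called 0 of the 14, with 5 under an unadjusted p of 0.05, and DESeq2 with the day called 5.

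In S. mikatae 6 of 11 were called, where 28.9% of 3611 were. YDR541C, a putative reductase at the right end of chromosome IV, had 63 and 131 unique reads (32.2 and 24.5 normalised) against 645 and 374 (168 and 90.3), 2.15 ± 0.44 higher (adjusted p = 2.6e-05). ADH6 had 1271 and 4672 against 1087 and 1272 reads, a log2 change of -1.33 ± 0.38 (adjusted p = 0.0035). MIX23, SRO77 and YML131W were again higher (2.36, 1.31 and 1.83) and FET4 lower (-2.05). Without the day as a term YDR541C and YML131W alone were called. Of the fits that left out 1 library, YDR541C was lost without S. cerevisiae replicate 2 (2.01) and S. mikatae replicate 1 (1.69), YML131W without every library but S. mikatae replicate 2 (1.54 to 1.86), FET4 likewise (-0.87 to -2.27), and ADH6 (-1.13 to -1.55), MIX23 (1.92 to 2.93) and SRO77 (0.99 to 1.62) without any of the 4.

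In S. bayanus 1 of 11 was called, where 4.13% of 3632 were. SGE1 had 33 and 22 reads there against 380 and 1708 in S. cerevisiae, or 12.9 and 7.75 against 194 and 320 normalised reads. The log2 change was -4.67 ± 0.56 (adjusted p = 0.033), and the call held in the 4 fits without 1 library and without the day. ERO1, with 4322 and 6030 reads in S. bayanus, did not pass (0.091 ± 0.50, adjusted p = 0.92). BDS1, a sulfatase known to have been gained from bacteria, had 219 and 412 unique reads (S. cerevisiae) against 462 and 713 (S. bayanus) and did not pass (1.15 ± 0.45, adjusted p = 0.16). MIX23 (3.41 ± 0.71, adjusted p = 0.056) and FET4 (-2.04 ± 0.55, adjusted p = 0.083), called in the 8-library fit, also missed the threshold in this one. So did YML131W and SRO77, which that fit had called lower.

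A chi-square rebuilt from the study's methods, with the p-values of both days combined by Fisher's method, was computed over the same pairs as another test. A gene was called here at p under 0.01, with a shared direction on both days required in addition. It called 3 of 14 genes near the ends against S. paradoxus (ADH7, MNT2 and ARR1), where 18.2% of all genes were called. The edgeR calls ARN2 (p = 0.195), FET4 (p = 0.394) and SGE1 (p = 0.0377) did not pass the chi-square. Against S. mikatae the chi-square called 5 of 12 (SRO77, YDR541C, RMD6, YML131W and ADH6), where 18.9% were. The edgeR calls MIX23 (p = 0.0715) and FET4 (p = 0.195) did not pass the chi-square. Against S. bayanus it called 4 of 12 (SRO77, YML131W, BDS1 and SGE1), where 23.0% were. These 12 include YFR056C, which had no reads and so could not be called. Of the genes that edgeR called against S. bayanus in the core fit, SRO77 (p = 0.000546) and YML131W (p = 0.00252) passed the chi-square. MIX23 (p = 0.0132) and FET4 (p = 0.171), also called in that core fit, did not pass the chi-square.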

How the data were processed

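RNA-Seq counts of 8 libraries, 2 cultures of each of 4 species, were analysed. The deposited values are counts: the authors aligned 35-base SOLiD reads with MOSAIK, allowing up to 2 mismatches, to each species' genome (sacCer2 per the labels for S. cerevisiae) and counted, per annotated gene and strand, all aligned reads and reads with a single position, without normalization. Positions are given as in the files, counted from 1. R64 was matched by locus name only, and the printed sequences are from it.

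Core reads were scaled by TMM. Genes with at least 10 unique reads in at least 2 libraries were tested with edgeR 4.0.16 (R 4.3.3), and DESeq2 1.42.0 was an alternative. Both steps, and a chi-square rebuilt from the study's methods, were tested on simulated data. R64 windows were matched with bwa 0.7.19. Python 3.11.15 and pandas 2.3.3 were used. Replicate numbers pair the samples by day of preparation, as the study states. Changes from replicate 1 to 2 correlated between every 2 species across 2473 core genes (r = 0.19 to 0.50), so the day is a term in each fit. P-values measure the spread between these cultures. In the pair fits with the day as a term each gene has 1 residual degree of freedom, so its spread leans on that of other genes. Named genes are those called in a comparison, the 10 highest in unique reads per kb, the 10 with the most multi-position reads, names listed more than once elsewhere with at least 10 reads and genes of 20 lists. AIF1, IRC7, YAR068W, SEO1, YAL065C, YLL066W-B, YBL113W-A, BDS1, RMD6 and the genes at the 15 kb limit were named after their values were seen. Genes and lists were chosen with earlier results of these data known. Intervals cover counting error only.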

Additional observations from a re-analysis of the deposited data

How the results depend on the processing

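No call of the 21 named ones changed direction in any of 216 alternative values, and 80 of these no longer passed: 63 without 1 library, 14 without the replicate block and 3 under another normalization or inclusion. The rebuilt chi-square is not among these values. Without the replicate block, 1 (S. paradoxus), 2 (S. mikatae) and 1 (S. bayanus) of the 6 genes were called in the core fits, and 0, 2 and 3 in the pair fits, the species in this order here and below. Over all core genes the calls were 265, 353 and 488 without the block against 522, 615 and 767 with it, and over the pairs 207, 230 and 479 against 1007, 1042 and 150. For the day DESeq2 called 243 core genes and edgeR 10. Leaving out 1 library gave 0 to 1, 1 to 4 and 1 to 3 calls in the core fits and, with no replicate block, 0 to 3, 0 to 3 and 1 to 3 in the pair fits. In the S. paradoxus pair, DESeq2 size factors gave 3 calls and the rebuilt chi-square 3. In the S. mikatae pair, no filter gave 7 calls of 12, against 6 of 11 in the main fit. Over all genes of that pair the calls were then 1042 of 3691. In the S. bayanus pair, no filter gave 2, DESeq2 3, the chi-square 4 and the wider length and uniqueness limits 4. Calls over all genes rose with these settings too. They were 239 of 3720, 686 of 3632, 856 of 3723 and 885 of 4002 in the same order, against 150 of 3632 in the main fit. With the limit at 20 kb the core counts were 2, 5 and 10 of 20, and the pair counts 12 of 36, 13 of 30 and 3 of 28. At 10 kb they were 1 of 3 in S. paradoxus and 0 of 3 in S. bayanus, with no gene left in the core fits or the S. mikatae pair.

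Genes with under 10% unique reads were 81.5% within 10 kb, 60.7% within 20 kb, 66.9% of those matched in RefSeq and 76.3% with 10 reads in both libraries, and 73.2 to 76.3% in 1 library alone. Names not listed were 73.6% within 10 kb, 56.7% within 20 kb and 55.8% of those in RefSeq (S. paradoxus), 82.8 and 68.2% within 10 and 20 kb (S. mikatae), and 84.7, 71.8 and 71.5% (S. bayanus). Names listed once were 18.4, 33.1 and 34.3% (S. paradoxus), 11.0 and 23.9% (S. mikatae), and 21.0% within 20 kb and 20.9% in RefSeq (S. bayanus). The cause of these changes was not tested beyond the change in genes or libraries used. Depth limits genes such as MIX23, with 4 reads in S. cerevisiae replicate 1.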
